A study of Mus musculus with 2 samples.

Results

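The 8 genes described here encode ligands and inhibitory receptors that restrain phagocytosis and immune attack: Cd47, Sirpa, Cd24a, Cd274, Pdcd1lg2, Havcr2, Lilrb4a and Pirb. They were taken by symbol from the 32286 features of 2 single-cell libraries of mouse bone marrow. All 8 were found. Transcript 3′ ends were counted as unique molecular identifiers (UMIs) in hematopoietic cells. The control library carried the genotype Mx1Cre+/-;Rosa26+/+ and the other, called the MYC library, the genotype Mx1Cre+/-;Rosa26LSL-MYC/LSL-MYC. Both genotypes thus carry Mx1-Cre, a recombinase under an interferon-inducible promoter that acts in many blood cells and not in stem cells alone. Only the second genotype holds a MYC transgene, kept silent by a stop cassette until Cre cuts it out. The study set out to compare the marrow after MYC overexpression in hematopoietic stem cells. No inducing agent, age or number of animals is given in the sources used here, and with 1 library per group genotype and library cannot be told apart. No difference was tested, and each range in parentheses is a 95% interval for counting error alone.

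CD47 on a cell binds SIRPα on a phagocyte, and SIRPα then recruits phosphatases that halt engulfment. CD24, which in mice binds the sialic-acid receptor Siglec-G, gives a second such signal. PD-L1 (Cd274) and PD-L2 (Pdcd1lg2) bind PD-1 on T cells and dampen their activity, TIM-3 (Havcr2) does so on T cells and on myeloid cells, and LILRB4A and PIR-B are inhibitory receptors of myeloid cells. MYC has been reported to bind the Cd47 and Cd274 genes and to raise their transcription in tumour cells.

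The deposited matrices held 17073 barcodes with 131884603 UMIs (control) and 14496 barcodes with 110012176 UMIs (MYC), of which 14720 and 12645 cells were kept (medians of 5315 and 6014 UMIs). The 2 libraries shared 97 barcodes, 77 of them among kept cells. The feature named MYC had 0 UMIs in kept control cells and 295 in the MYC library, 152 of them in mature neutrophils. The sequence behind that feature is not given in the sources used here, so its UMIs mark only the cells in which they were counted. Cells fell into 17 classes named from marker genes, and each name stands for clusters that look like that type by those markers. Levels were compared in the 10 classes with at least 100 cells in each library. Macrophages (20 control cells and 653 of the MYC library), B progenitors (420 and 16), nonclassical monocytes (175 and 78), plasmacytoid dendritic cells (236 and 57), plasma cells (251 and 92), megakaryocytes (58 and 61) and stromal or endothelial cells (91 and 109) were described only. Within mature neutrophils the libraries filled different clusters. The cluster led by Il1b held 47.1% of the control cells of the class and 11.4% of those of the MYC library, and a cluster led by Cstdc4 held 2.62% and 47.6%. A further 2902 control cells and 2671 of the MYC library, with medians of 814 and 808 UMIs, were in unnamed clusters.

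**Figure D1:**
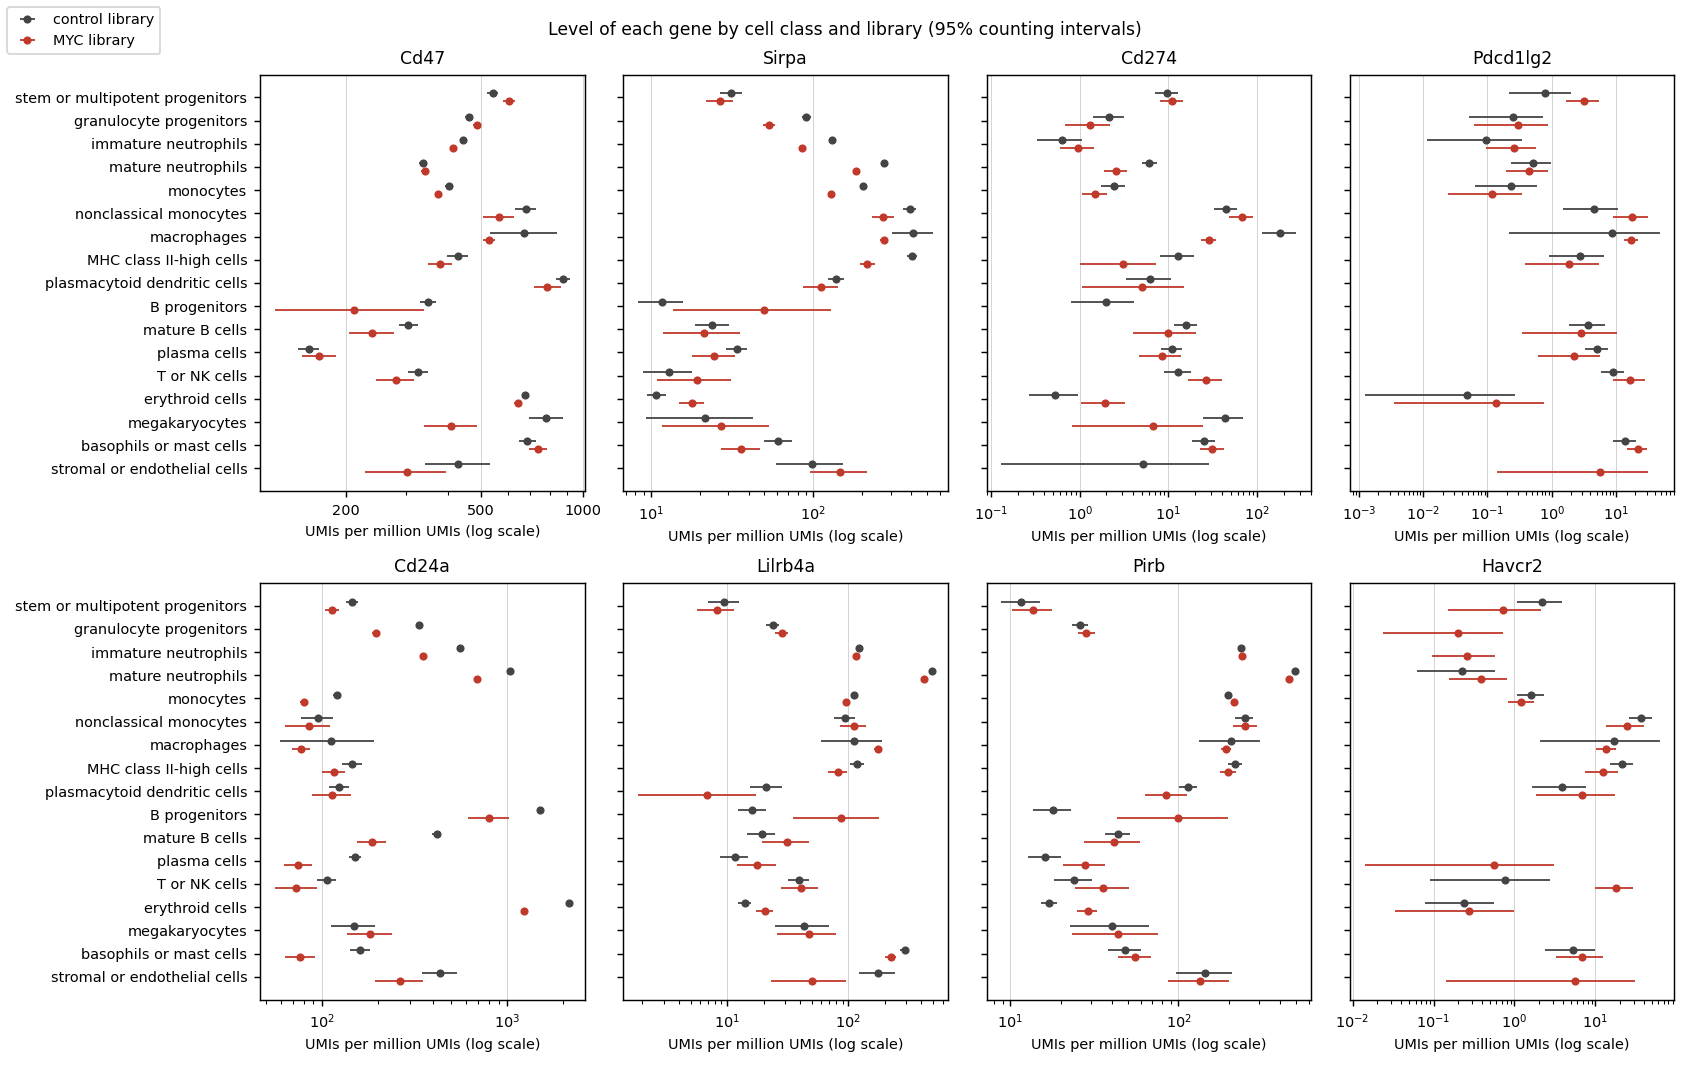
Level of each of the 8 genes in every named cell class, as UMIs per 1000000 UMIs of the class on a log axis that differs between panels, in the control library (grey) and the MYC library (red). Points are sums over the cells of a class, bars are 95% counting intervals, and a class with 0 UMIs has no point. Cd47 is found in every class, Cd274 is sparse, and Pdcd1lg2 and Havcr2 are near the floor in most classes. The red Cd24a points lie left of the grey ones in all 10 compared classes.

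Differences between the libraries were small for most of these genes. Of the 80 pairs of gene and compared class, 59 had at least 50 UMIs over both libraries. Among those 59, 1 pair was at least 2-fold higher in the MYC library (Cd274 in T or NK cells) and 3 were at least 2-fold lower: Cd274 in mature neutrophils, and Cd24a in mature B cells and in basophils or mast cells. Over all 85780 such pairs of any gene the shares were 2.45% higher and 4.69% lower, so neither count stands clear of the background. Per class, the shares of all genes at least 2-fold higher and lower were 0.899% and 2.27% in stem or multipotent progenitors, 0.765% and 5.14% in granulocyte progenitors, and 2.48% and 3.03% in immature neutrophils. They were 2.6% and 6.36% in mature neutrophils, 1.84% and 4.2% in monocytes, 5.77% and 5.51% in MHC class II-high cells, and 2.22% and 10.1% in mature B cells. In T or NK cells they were 2.59% and 3.66%, in erythroid cells 4.73% and 3.89%, and in basophils or mast cells 1.37% and 4.58%. The median log2 ratio over the 59 pairs was -0.17. The median of all genes lay below 0 in each class too, from -0.31 in granulocyte progenitors to -0.03 in MHC class II-high cells.

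Cd47 (ENSMUSG00000055447, protein-coding, GRCm38 chromosome 16, 49800533 to 49915010) encodes the widely expressed ligand of SIRPα. In the control library its level was 686 UMIs per 1000000 UMIs of the class (CPM) in basophils or mast cells and 674 CPM in erythroid cells, which did not differ beyond counting error. Stem or multipotent progenitors (543 CPM), granulocyte progenitors (463 CPM) and immature neutrophils (445 CPM) came next, each below the class before it by more than counting error. The 428 CPM of MHC class II-high cells could not be told from the 445 CPM of immature neutrophils or the 402 CPM of monocytes. Mature neutrophils (337 CPM), T or NK cells (327 CPM) and mature B cells (306 CPM) were lowest. Mature neutrophils lay below monocytes by more than counting error, and the steps among these 3 classes were within it. In the MYC library the same classes stood at 739, 646, 605, 487, 413, 379, 374, 343, 280 and 238 CPM, in the same order.

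Between the libraries Cd47 stayed within 2-fold in every compared class. Its log2 ratio ran from -0.36 (-0.61 to -0.12) in mature B cells to 0.16 (0.08 to 0.23) in stem or multipotent progenitors. It was 0.02 (-0.03 to 0.08) in mature neutrophils, where the feature named MYC had 152 of its 295 UMIs, and -0.06 in erythroid cells, which held 25.2% of all Cd47 UMIs of the control and 10.8% of those of the MYC library. Cd47 lay below the median of all genes in 4 of the 10 classes. In mature neutrophils it ran from -0.20 to 0.24 over the processing alternatives and was -0.15 without the Il1b-led cluster, and the sign also turned in some alternatives in stem or multipotent progenitors, immature neutrophils and monocytes. Over all kept cells the levels were 464 and 427 CPM (log2 ratio -0.12), and -0.07 when the classes were weighted as in the control. Outside the compared classes Cd47 was 875 and 786 CPM in plasmacytoid dendritic cells, and 156 and 167 CPM in plasma cells.

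The bases before the Cd47 and Cd274 starts were read because both are named as MYC targets, and MYC with its partner MAX binds the E-box CACGTG. Promoters of 5 of the 8 genes were found in RefSeq (GRCm38.p6), and in each the 250 bases before the start were searched on both strands. The motifs were CACGTG, the wider E-box CANNTG, which includes it, the core of the interferon-stimulated response element (2 copies of GAAA with 2 bases between them) and the STAT motif TTCNNNGAA. The Cd47 window (chr16:49855404-49855653, plus strand), of 73.2% G and C, held none of these; its RefSeq start lies inside the wider interval that GENCODE gives for the gene. The Cd274 window (chr19:29367188-29367437, plus strand), of 50.4% G and C, held 1 CANNTG, in capitals below, 235 bases before the start, and no CACGTG.
Cd47: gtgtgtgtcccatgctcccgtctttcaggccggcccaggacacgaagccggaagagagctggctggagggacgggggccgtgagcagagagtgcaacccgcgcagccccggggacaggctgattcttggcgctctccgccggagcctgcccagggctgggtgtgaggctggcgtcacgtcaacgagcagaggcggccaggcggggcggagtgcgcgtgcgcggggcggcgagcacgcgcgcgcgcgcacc
Cd274: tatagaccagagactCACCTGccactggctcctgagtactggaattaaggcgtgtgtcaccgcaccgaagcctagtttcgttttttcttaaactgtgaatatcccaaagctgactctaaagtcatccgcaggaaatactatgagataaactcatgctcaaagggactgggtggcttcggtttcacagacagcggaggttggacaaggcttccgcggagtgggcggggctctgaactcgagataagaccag
No CACGTG, interferon-stimulated response element core or TTCNNNGAA was found in the windows of Pdcd1lg2, Pirb or Havcr2 either. Over all 32851 promoter windows of this length 6.02% held CACGTG, 66.2% CANNTG, 2.98% the response element core and 7.02% TTCNNNGAA. Each result says only that these letters are or are not in the window.

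Sirpa (ENSMUSG00000037902, protein-coding, chromosome 2, 129592835 to 129632228), the phagocyte receptor of CD47, was lower in the myeloid classes of the MYC library. Mature neutrophils stood at 272 CPM in the control (4767 UMIs) and at 183 CPM in the MYC library (3278 UMIs), with a log2 ratio of -0.57 (-0.64 to -0.51). Without the Il1b-led cluster, in which Sirpa was high, the class gave 221 and 178 CPM (-0.31). Monocytes stood at 203 and 129 CPM (-0.65), immature neutrophils at 130 and 85.7 CPM (-0.60) and granulocyte progenitors at 90.6 and 53.4 CPM (-0.76). MHC class II-high cells, where Sirpa was highest among the compared classes in either library, stood at 408 and 215 CPM (-0.93, -1.11 to -0.74), and basophils or mast cells at 60.7 and 36.1 CPM (-0.75). All 6 intervals lay below the median of all genes of their class, and none of the 6 pairs reached 2-fold, although MHC class II-high cells did (-1.16) without the 20 most abundant genes in the total. Of 5515 genes with enough UMIs in these 6 classes, 34.6% were lower in all of them and 21.8% were below the class median in all of them.

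The difference in Sirpa was also present within single clusters. It was lower in all 14 clusters of granulocyte progenitors, neutrophils, monocytes, macrophages and MHC class II-high cells, among them the Il1b-led cluster (362 and 239 CPM), and 13 of the 14 intervals excluded 0. The macrophage cluster stood at 413 CPM (48 UMIs) and 273 CPM (1099 UMIs), nonclassical monocytes at 393 and 269 CPM. In MHC class II-high cells the 9 macrophage markers summed to 2623 and 1314 CPM and the 7 monocyte markers to 3895 and 2892 CPM, and their part in the Sirpa value was not tested. The order of classes was the same in both libraries down to basophils or mast cells, with each step beyond counting error. In erythroid cells the level was 10.8 and 17.9 CPM (0.73, 0.40 to 1.04), and the ratio ran from 0.03 with doublets kept to 2.06 when the libraries were clustered separately. The ratios within the 3 erythroid clusters, 0.09, 0.28 and 0.30, had intervals that included 0. In T or NK cells it was 12.8 and 19.1 CPM (0.57, -0.38 to 1.47), and -0.19 with doublets kept. The 6 markers of immature neutrophils summed to 2867 and 5247 CPM in erythroid cells and to 3434 and 6365 CPM in T or NK cells, and their part was not tested. Over all cells Sirpa was 125 and 112 CPM (-0.16), and -0.53 with the class makeup of the control. Monocytes numbered 1251 and 1616 and macrophages 20 and 653.

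The Sirpb1 genes encode activating relatives of SIRPα that lack its inhibitory tail. In mature neutrophils Sirpb1b was 38.5 and 24.2 CPM (log2 ratio -0.67) and Sirpb1c 30.5 and 15.3 CPM (interval -1.21 to -0.79), while Sirpb1a (52 and 48 UMIs) had -0.15 with an interval that included 0. In monocytes Sirpb1b (0.37) and Sirpb1c (0.45) lay on the other side, at 24.2 and 33.1 CPM for Sirpb1c, unlike Sirpa in the same cells. Of Sirpa itself, 0.0755% of the 31-base words in the last 500 bases of its transcripts occurred in another gene, and sharing among the Sirpb1 genes was not measured. Thbs1, which encodes thrombospondin-1, a secreted ligand of CD47, stood at 182 and 53.8 CPM in mature neutrophils (-1.76, -1.86 to -1.65, and -2.59 at minimums of 1000 UMIs and 500 genes per cell) and at 27.4 and 13.4 CPM in immature neutrophils (-1.04).

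**Figure D2:**
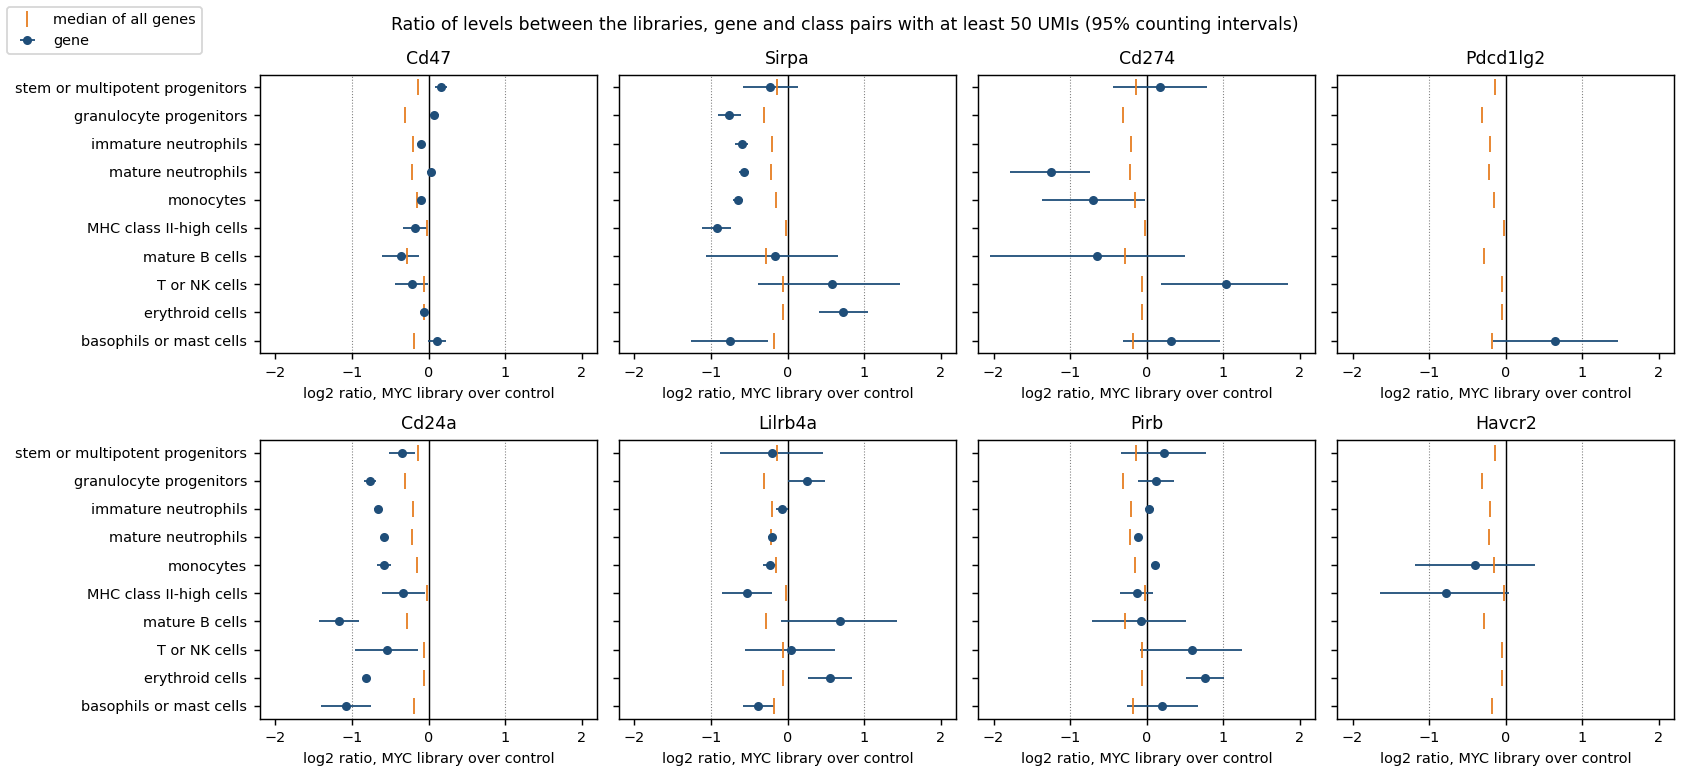
Log2 ratio of each gene's level, MYC library over control, in the 10 compared classes, for pairs with at least 50 UMIs. Points carry 95% counting intervals, orange ticks mark the median of all genes in the class, and dotted lines mark 2-fold. Cd24a lies left of 0 and of the orange tick in all 10 classes, Sirpa in the myeloid ones, and Cd47 stays close to 0.

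Cd24a (ENSMUSG00000047139, protein-coding, chromosome 10, 43578284 to 43584265) encodes a small sialylated surface protein, high on developing B cells, erythroid cells and neutrophils. It was lower in the MYC library in all 10 compared classes, and every interval lay below both 0 and the median of all genes in the class. For comparison, 20.1% of the 4912 genes with enough UMIs in all 10 classes were lower in all of them, and 10.4% were below the median of the class in all of them. Erythroid cells had the highest level, 2165 CPM (44897 UMIs) against 1230.1 CPM in the MYC library (9011 UMIs), with a log2 ratio of -0.82 (-0.85 to -0.78). The 3 erythroid clusters each gave a lower level, at -0.53, -0.32 and -1.02. Mature neutrophils stood at 1034 and 692 CPM (-0.58), immature neutrophils at 556 and 350.0 CPM (-0.67) and granulocyte progenitors at 333 and 195 CPM (-0.77), so the level was higher at each later stage in both libraries.

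The 2 classes past 2-fold were mature B cells, at 417 CPM (1228 UMIs) and 186 CPM (131 UMIs, -1.17, -1.44 to -0.91), and basophils or mast cells, at 161 CPM (275 UMIs) and 76.2 CPM (112 UMIs, -1.08, -1.41 to -0.75). In mature B cells 10.1% of all genes were at least 2-fold lower and in basophils or mast cells 4.58%. In MHC class II-high cells the ratio of summed UMIs was -0.33 (-0.61 to -0.05), and as a mean over cells it became -1.14, past 2-fold. Stem or multipotent progenitors stood at 145 and 114 CPM (-0.35), monocytes at 120 and 79.9 CPM (-0.59) and T or NK cells at 106 and 72.8 CPM (-0.54). B progenitors stood at 1498 CPM (5292 UMIs) in the control, above mature B cells, and at 798 CPM (64 UMIs from 16 cells) in the MYC library.

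Cd24a was lower in 28 of the 29 clusters, with an interval below 0 in 25; megakaryocytes were the exception (0.30, -0.27 to 0.87). Over all kept cells it was 801 and 357 CPM (log2 ratio -1.17), where 9.45% of all genes were at least 2-fold lower and 2.85% higher. With the class makeup of the control this became -0.76. Erythroid cells numbered 1215 and 567 and B progenitors 420 and 16. The 10 erythroid markers also had lower summed levels in most other classes of the MYC library, at 1007 and 621 CPM in mature neutrophils, 1279 and 475 CPM in basophils or mast cells and 411 and 218 CPM in monocytes. In mature B cells (816 and 700 CPM) and T or NK cells (694 and 686 CPM) the sums were closer. The part of erythroid RNA in the Cd24a values was not tested; in erythroid cells themselves the same markers summed to 36919 and 41325 CPM. Of the 31-base words in the last 500 bases of Cd24a transcripts, 3.97% also occurred in other genes.

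Siglecg, which encodes the murine receptor of CD24, was lower in the MYC library in granulocyte progenitors, both neutrophil classes and monocytes, with intervals below those of Cd24a there. It stood at 82.5 CPM (998 UMIs) and 20.3 CPM (205 UMIs) in granulocyte progenitors, with a log2 ratio of -2.02 (-2.25 to -1.80). Immature neutrophils stood at 39.7 and 10.0 CPM (-1.98), mature neutrophils at 23.3 and 5.52 CPM (-2.08) and monocytes at 21.9 and 3.77 CPM (-2.54, -2.88 to -2.21). In mature B cells, where the gene was highest, the levels were 268 and 148 CPM (-0.86, -1.17 to -0.56). MHC class II-high cells stood at 23.4 and 19.1 CPM (-0.29), with an interval of -1.01 to 0.41 that included 0. In granulocyte progenitors, both neutrophil classes and monocytes the values stayed past 2-fold under all 10 alternatives.

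**Figure D3:**
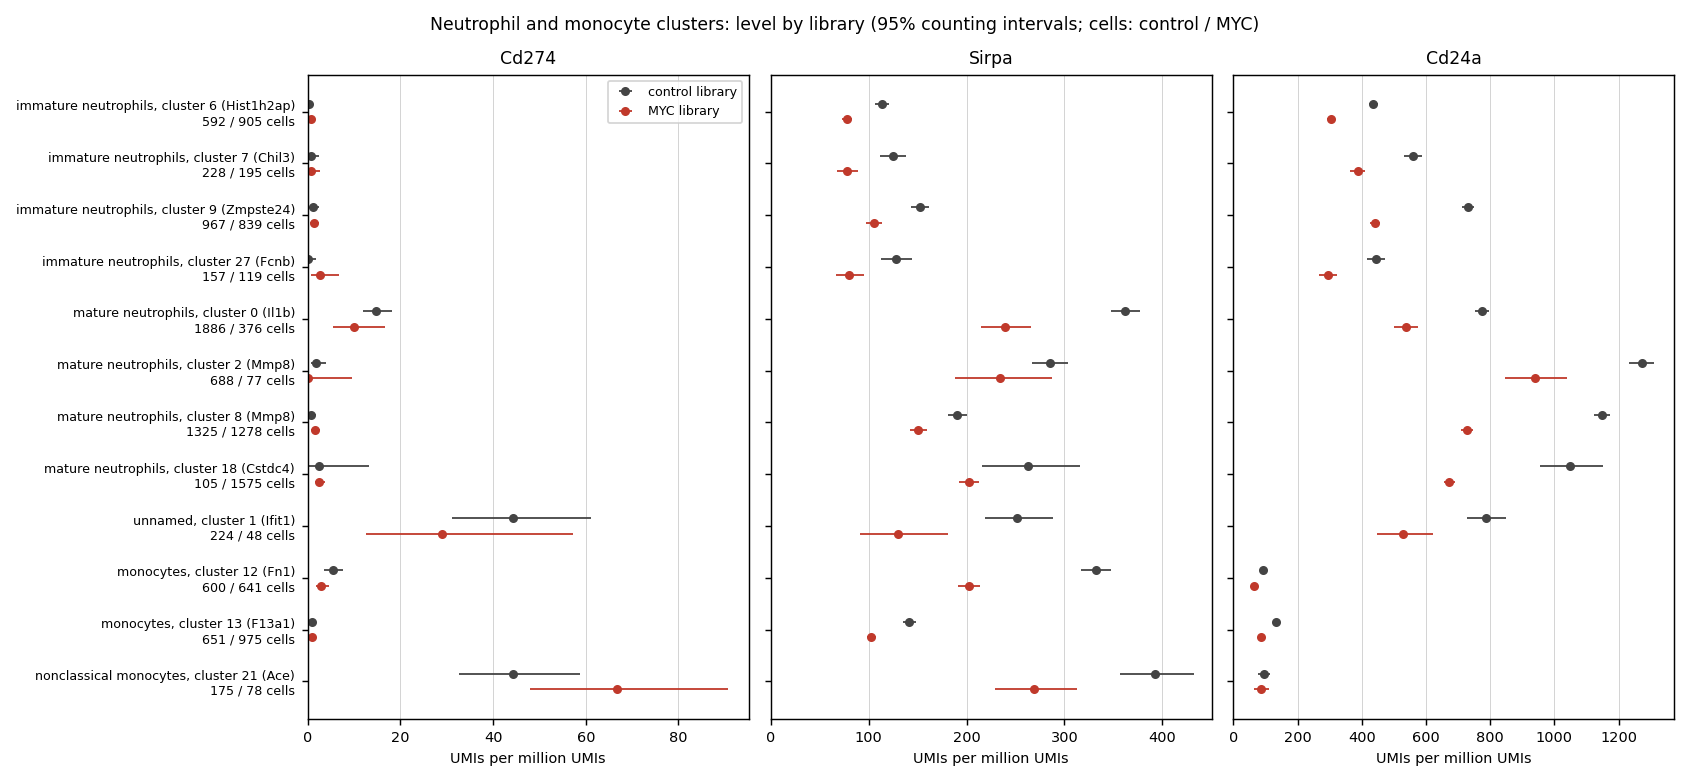
Levels of Cd274, Sirpa and Cd24a, as UMIs per 1000000 UMIs, in 12 neutrophil and monocyte clusters, by library (grey control, red MYC), with 95% counting intervals and the cells of each library. Cd274 stands out in the Il1b-led and Ifit1-led neutrophil clusters and in nonclassical monocytes, whereas Sirpa and Cd24a are lower in the MYC library in every cluster shown.

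Cd274 (ENSMUSG00000016496, protein-coding, chromosome 19, 29367455 to 29388095), which encodes PD-L1, was sparse, with 610 control UMIs and 458 of the MYC library. Among compared classes it was highest in basophils or mast cells, at 25.1 CPM (43 UMIs) and 31.3 CPM (46 UMIs), with a log2 ratio of 0.32 (-0.31 to 0.95). Stem or multipotent progenitors stood at 9.64 and 10.9 CPM (0.17, -0.44 to 0.79) and mature B cells at 15.6 and 9.94 CPM (-0.65, -2.05 to 0.50). These 3 intervals included 0. Erythroid cells stood at 0.531 CPM (11 UMIs) and 1.91 CPM (14 UMIs), granulocyte progenitors at 2.15 and 1.29 CPM and immature neutrophils at 0.623 and 0.963 CPM. MHC class II-high cells stood at 12.8 CPM (23 UMIs) and 3.08 CPM (5 UMIs), too few UMIs for a comparison. Nonclassical monocytes stood at 44.3 CPM (48 UMIs) and 66.8 CPM (41 UMIs).

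In mature neutrophils Cd274 was 6.09 CPM in the control (107 UMIs) and 2.57 CPM in the MYC library (46 UMIs), with a log2 ratio of -1.25 (-1.78 to -0.74), where 6.36% of all genes were at least 2-fold lower. The Il1b-led cluster held 94 of the 107 control UMIs and stood at 14.8 CPM there and at 9.89 CPM (14 UMIs) in the MYC library, -0.59 with an interval of -1.51 to 0.23. In the other clusters of the class Cd274 was at most 2.46 CPM in either library. Without the Il1b-led cluster, which held 1886 control cells and 376 of the MYC library, the class stood at 1.16 CPM (13 UMIs) and 1.94 CPM (32 UMIs), and the log2 ratio turned to 0.74 (-0.23 to 1.80). An unnamed neutrophil-like cluster led by the interferon-induced gene Ifit1 (224 control cells and 48 of the MYC library) stood at 44.4 and 29.0 CPM, and adding it gave -1.40. Over the 10 processing alternatives Cd274 in the whole class ran from -1.98 with coarser clustering (Leiden resolution 0.5) to -0.72 at minimums of 1000 UMIs and 500 genes per cell. Monocytes stood at 2.42 and 1.49 CPM (-0.70, -1.37 to -0.03), and at -0.09 with Leiden resolution 2.

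In T or NK cells Cd274 was 12.8 CPM in the control (34 UMIs in 31 cells) and 26.3 CPM in the MYC library (22 UMIs in 16 cells), with a log2 ratio of 1.03 (0.19 to 1.85). In that class 2.59% of all genes were at least 2-fold higher. The 8 T cell markers summed to 1813 and 2031 CPM and the 6 NK cell markers to 863 and 699 CPM. The 6 mature neutrophil markers summed to 628 and 1598 CPM. In the MYC library Cd274 itself stood at 2.57 CPM in mature neutrophils and at 66.8 CPM in nonclassical monocytes. The part of RNA from other cells in these T or NK cells was not tested. Pdcd1, which encodes PD-1, the receptor of PD-L1 and PD-L2, stood at 27.9 CPM (74 UMIs) and 79.9 CPM (67 UMIs) in these cells, 1.52 (1.02 to 2.01), and Lag3, another inhibitory T cell receptor, at 22.6 and 62.0 CPM (1.45). As a mean over cells these became 0.66 and 0.48, and Cd274 became 0.62. Ctla4, with 63 and 12 UMIs, lay the other way at 23.8 and 14.3 CPM (-0.73, -1.76 to 0.17). Cd160 was lower too (84.5 and 62.0 CPM, -0.45, -0.91 to -0.005) and Pilra higher (9.43 and 29.8 CPM, 1.66). The 14 genes with enough UMIs in the list that holds Lag3, Ctla4, Cd160 and Pilra had a median of 0.04. The macrophage values of Cd274, 181 CPM and 28.3 CPM, rest in the control on 21 UMIs in 9 of 20 cells, 10 of these UMIs in 1 cell. In megakaryocytes 9 of the 16 control UMIs of Cd274 lay in 1 cell.

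Pdcd1lg2 (ENSMUSG00000016498, protein-coding, chromosome 19, 29410919 to 29471161) lies next to Cd274 and encodes PD-L2. It had 118 control UMIs and 173 of the MYC library, and among the compared classes only basophils or mast cells reached 50 UMIs, at 14.0 and 21.8 CPM (0.64, -0.17 to 1.46). T or NK cells stood at 9.05 CPM (24 UMIs) and 16.7 CPM (14 UMIs). In the MYC library 40.5% of its UMIs were in macrophages (17.4 CPM, 70 UMIs), a class with 20 control cells. Neutrophils at every stage and erythroid cells stood at or below 0.513 CPM. Cd80, whose product binds PD-L1 on the same cell, was lower in mature neutrophils (13.4 and 4.18 CPM, -1.68), immature neutrophils (-1.47) and monocytes (-1.42).

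Havcr2 (ENSMUSG00000020399, protein-coding, chromosome 11, 46454935 to 46481255), which encodes TIM-3, had 149 and 175 UMIs. It was found mainly in MHC class II-high cells, at 21.2 and 12.3 CPM (-0.78, -1.64 to 0.04), in nonclassical monocytes (36.9 and 24.4 CPM) and in macrophages of the MYC library (13.7 CPM, 55 UMIs). Monocytes stood at 1.61 and 1.22 CPM (-0.41, -1.19 to 0.39, and -1.07 at Leiden resolution 0.5). In T or NK cells 2 control UMIs and 15 UMIs of the MYC library, from 10 cells, were counted (0.754 and 17.9 CPM), short of the 50 UMIs set for a comparison. Of its reported ligands, Lgals9 (galectin-9) was lower in monocytes (93.4 and 42.5 CPM, -1.14, and -0.98 with median-of-ratios scaling), whereas Hmgb1 lay within 2-fold in every compared class, from -0.43 in mature B cells to 0.88 in MHC class II-high cells.

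Lilrb4a (ENSMUSG00000112148, protein-coding, chromosome 10, 51490956 to 51496611) and Pirb (ENSMUSG00000058818, protein-coding, chromosome 7, 3711409 to 3720391) were the receptors with the smallest differences within the myeloid classes. Lilrb4a was highest in mature neutrophils, at 492 and 426 CPM (-0.21, -0.25 to -0.16), but 0.06 without the Il1b-led cluster and 0.01 with median-of-ratios scaling, then in basophils or mast cells at 292 and 224 CPM (-0.38). Its largest difference among myeloid classes was in MHC class II-high cells, at 118 and 81.8 CPM (-0.53, -0.85 to -0.21). Pirb was also highest in mature neutrophils, at 492 and 457 CPM (-0.11, and 0.11 with median-of-ratios scaling), with 234 and 240 CPM in immature neutrophils (0.03, -0.02 to 0.09) and 198 and 214 CPM in monocytes (0.11). Both genes were higher at each later stage of the neutrophil lineage, from 26.0 CPM of Pirb and 23.7 CPM of Lilrb4a in control granulocyte progenitors. Over all cells Pirb was 166 and 211 CPM (0.35), and 0.03 with the class makeup of the control.

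In erythroid cells Pirb (17.0 and 28.8 CPM, 0.76) and Lilrb4a (13.9 and 20.5 CPM, 0.55) were higher with intervals above 0, as were Pirb in monocytes (0.11, 0.05 to 0.17) and Lilrb4a in granulocyte progenitors (23.7 and 28.2 CPM, 0.25, 0.01 to 0.49). The last of these turned to -0.87 in cells under 5% mitochondrial UMIs. The erythroid values depended on the cells taken, at 0.22 for Pirb and -0.04 for Lilrb4a with doublets kept, and at 1.91 and 1.85 with each library clustered on its own. In erythroid cells the immature neutrophil markers were higher as well, as given for Sirpa. Within the 3 erythroid clusters the Pirb intervals included 0, and Lilrb4a was lower in 1 (-0.70) and higher in the others (0.90 and 0.57). The relative Lilr4b stood beside Lilrb4a, at 491 and 465 CPM in mature neutrophils (-0.08). Of the 31-base words in the last 500 bases of Lilrb4a transcripts 68.3% occurred in another gene, 51.3% in Gm49339 and 39.3% in Lilr4b, and of those of Pirb 21.0%, 16.3% in Gm14548 and 16.2% in Pira2, so the counting may have split or dropped reads of these genes. Lilra6, an activating relative, was lower in mature neutrophils (128 and 48.1 CPM, -1.42, -1.53 to -1.30) and monocytes (65.2 and 16.7 CPM, -1.97). Pira2, also activating, was 173 and 140.2 CPM in mature neutrophils (-0.30) and 86.9 and 56.5 CPM in monocytes (-0.62).

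The genes with the most similar levels over classes were ranked by Pearson's r of log2(CPM + 1) over 26 points, each 1 class in 1 library, among 6214 genes. The points share libraries and cells' depths, so these values are a description. Pirb was closest to Fgr (r = 0.94), Degs1 and Plbd1, Sirpa to Lst1 (r = 0.92), Lrrc25 and Lamp2, and Lilrb4a to Lilr4b (r = 0.93), Gabarap and Apobr. Cd274 was closest to Rab19 (r = 0.84), Irf2bpl and Dusp5, and Pdcd1lg2 to Rab19 (r = 0.77), Ccl3 and Ccl4. Cd47 had no close match (Gatad1, r = 0.76, then Paxbp1 and Vps35), Cd24a was nearest to Azin1 (r = 0.80), Mier3 and Xk, and Havcr2 to Frmd4b (r = 0.86), Abhd12 and Axl. Among the 8 genes Sirpa and Pirb were most alike (r = 0.86), and Cd274 and Pdcd1lg2 had r = 0.75.

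**Figure D4:**
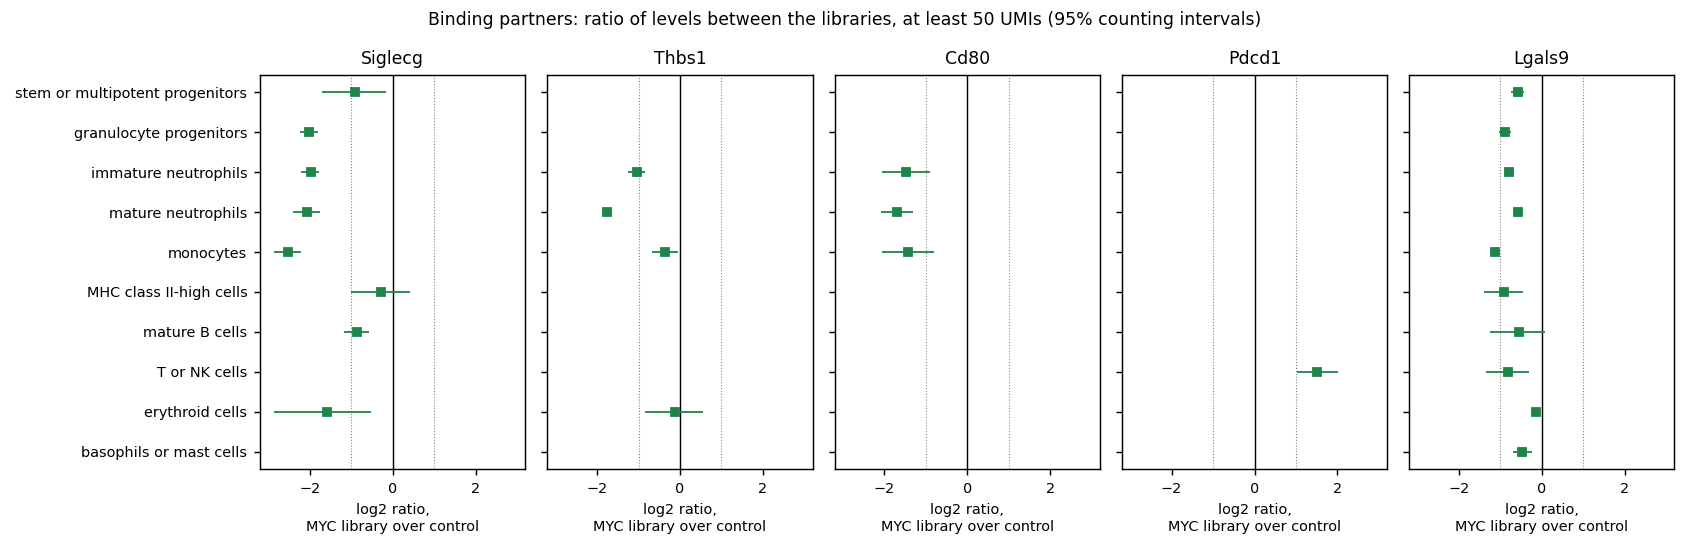
Log2 ratio, MYC library over control, of 5 genes whose products bind the proteins of the 8 genes, in classes with at least 50 UMIs. Squares carry 95% counting intervals and dotted lines mark 2-fold. Siglecg lies past 2-fold on the lower side in the 3 neutrophil-lineage classes, monocytes and erythroid cells, and Pdcd1 is past 2-fold on the higher side in T or NK cells.

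The other genes of these pathways were read from lists. Of 14 binding partners, 11 had enough UMIs in mature neutrophils: Fn1 was at least 2-fold higher (12.9 and 26.9 CPM, 1.06) and Siglecg, Thbs1, Cd80 and H2-K1 at least 2-fold lower. In monocytes Fn1 was far higher, at 1062 and 776 CPM, and lower in the MYC library (-0.45). H2-K1, an MHC class I chain that PIR-B can bind, stood at 533 and 265 CPM (-1.01). The median of the 11 was -0.56, against -0.22 for all genes, of which 2.6% were higher and 6.36% lower. In monocytes 13 had enough UMIs, and Apoe, a reported LILRB4 ligand in humans, was higher (144 and 297 CPM, 1.04, and 0.40 at Leiden resolution 0.5) while Siglecg, Cd80 and Lgals9 were lower, with a median of -0.45 against -0.15. In T or NK cells Pdcd1 and Apoe were at least 2-fold higher and none of the 7 was at least 2-fold lower (median 0.43 against -0.06), with Lgals9 at 77.3 and 44.1 CPM (-0.81, -1.36 to -0.30). In erythroid cells Apoe (24.9 and 121 CPM, 2.28), Fn1 (7.57 and 29.9 CPM, 1.98) and Ceacam1, a reported TIM-3 ligand (6.27 and 13.8 CPM, 1.14), were higher and Siglecg (68 and 8 UMIs, -1.59) lower, with a median of 0.05 against -0.06. Erythroid cells of the libraries sat in different clusters: the Hemgn-led one held 66.3% and 38.8% of them and the Gm26917-led one 11.8% and 42.9%. Within the Hemgn-led, Gm26917-led and Car1-led clusters Apoe gave 1.45, 0.62 and 2.19 and Fn1 1.93, 1.73 and 0.97, all with intervals above 0, while Ceacam1 gave -0.53, 0.27 and 1.20. The immature neutrophil markers were higher in erythroid cells as well (2867 and 5247 CPM). In the MYC library immature neutrophils held 11.9 CPM of Apoe and 9.94 CPM of Fn1, and monocytes 297 and 776 CPM. The part of RNA from other classes in these values was not tested. In granulocyte progenitors Fn1 was higher (3.14 and 7.73 CPM, 1.30) and Siglecg lower, and in immature neutrophils Siglecg, Thbs1 and Cd80 were lower. In stem or multipotent progenitors, MHC class II-high cells, mature B cells and basophils or mast cells no partner passed 2-fold. Of all genes, 1.84% and 4.2% were at least 2-fold higher and lower in monocytes, and 2.59% and 3.66% in T or NK cells. The shares were 4.73% and 3.89% in erythroid cells, 0.765% and 5.14% in granulocyte progenitors, and 2.48% and 3.03% in immature neutrophils. H2-K1 and Fn1 in mature neutrophils and Apoe in monocytes were past 2-fold in 7, 6 and 4 of 10 alternatives.

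Among genes that carry the interferon signal to Cd274, Stat2, which encodes a subunit of the factor that type I interferons activate, was at least 2-fold lower in mature neutrophils (25.7 and 11.2 CPM, -1.20, -1.45 to -0.96), and in 8 of 10 alternatives, with -0.88 at minimums of 1000 UMIs and 500 genes per cell. Monocytes stood at 52.9 and 18.2 CPM of Stat2 (-1.54, -1.71 to -1.38). In T or NK cells Irf1, a transcription factor that drives Cd274, stood at 74.3 and 167 CPM (1.17, 0.85 to 1.49), and was at 0.99 without the 20 most abundant genes in the total. In erythroid cells the interferon-gamma receptor genes Ifngr1 (38.8 and 92.3 CPM, 1.25) and Ifngr2 (5.40 and 11.7 CPM, 1.12) were higher, and Stat2 (20.2 and 9.28 CPM, -1.12) and Irf9 (59.2 and 27.8 CPM, -1.09), which encodes another subunit of that factor, were lower. Within the Hemgn-led, Gm26917-led and Car1-led erythroid clusters Ifngr1 gave 0.96, -0.49 and 1.09, Ifngr2 1.29, 0.16 and 0.68, Stat2 -1.38, -0.67 and -1.46, and Irf9 -1.04, -0.42 and -1.11. In the Gm26917-led cluster, with a larger share of the erythroid cells in the MYC library, all 4 intervals included 0.

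Of the enzymes and partners that mature or recycle CD47 and PD-L1, few passed 2-fold. In mature neutrophils none of 6 reached 2-fold (median -0.27). Qpctl, which makes the pyroglutamate that SIRPα recognises on CD47, stood there at 5.87 and 4.35 CPM (-0.43, -0.87 to 0.01). Cmtm6, which keeps PD-L1 on the surface, stood at 195 and 184 CPM (-0.08). Trappc4, a trafficking subunit, was higher in all 10 compared classes, from 0.44 in monocytes to 1.27 in mature B cells (28.9 and 69.5 CPM). Of the 4912 genes with enough UMIs in all 10 classes, 13.5% were higher in all of them. Cop1, a ubiquitin ligase, was lower in all 10, as were 20.1% of those genes, from -0.26 (-0.82 to 0.26) in T or NK cells to -0.78 in stem or multipotent progenitors. In monocytes Qpct was past 2-fold on the lower side (12.0 and 5.46 CPM, -1.13). Of the 12 genes of inhibitory receptor signalling, such as the phosphatase genes Ptpn6 and Inpp5d, none passed 2-fold in the neutrophil-lineage classes or in monocytes (medians -0.35 in mature neutrophils and -0.22 in monocytes).

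On the side of engulfment, 11 of 18 genes had enough UMIs in monocytes, where 4.2% of all genes were at least 2-fold lower. Slamf7, an activating receptor for phagocytosis (5.36 and 1.53 CPM, -1.81, and -0.85 at minimums of 1000 UMIs and 500 genes per cell), Axl, a receptor for apoptotic cells (8.36 and 2.79 CPM, -1.58), and Cd36, a scavenger receptor (2.13 and 0.707 CPM, -1.59), were lower there. In MHC class II-high cells Mertk (61.8 and 17.8 CPM, -1.79), Axl (222 and 70.1 CPM, -1.66) and Cd36 were the 3 of 10 at least 2-fold lower, and none was at least 2-fold higher. Of all genes 5.51% were at least 2-fold lower there and 5.77% higher. The macrophage marker sum given above, which includes Axl, was lower as well. Under the alternatives Mertk ran from -2.67 in cells under 5% mitochondrial UMIs to -1.10 as a mean over cells, and Axl reached -2.28 in the former. In mature neutrophils Lrp1, the receptor for surface calreticulin, was at least 2-fold higher (2.22 and 4.46 CPM, 1.01) and none of 7 was at least 2-fold lower. The other 6 lay below 0 there, the lowest being Cd36 (-0.90, -1.62 to -0.20) and the integrin chain gene Itgav (-0.51, -0.77 to -0.25), with a list median of -0.25 against -0.22 for all genes. Among 26 other checkpoint genes Lgals3, which encodes galectin-3, a ligand of LAG-3, was past 2-fold on the higher side in 8 compared classes, at 571 and 1257 CPM in mature neutrophils (1.14) and 40.0 and 174 CPM in T or NK cells (2.12, and 1.23 with doublets kept). The mature neutrophil markers were higher in those T or NK cells as well (628 and 1598 CPM), and their part was not tested.

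Within the MYC library, cells with a UMI of the MYC feature were set beside cells without one. In mature neutrophils (136 and 3170 cells, medians of 5705 and 5307 UMIs) Cd47 stood at 326 and 344 CPM, a ratio of 0.947 (0.833 to 1.07). The ratios of Cd24a (0.973, 0.891 to 1.06), Sirpa (0.925, 0.773 to 1.10) and Pirb (1.06, 0.951 to 1.17) had intervals that included 1, and Lilrb4a was at 1.13 (1.01 to 1.25). Cd274 had 1 UMI in the 136 cells. In monocytes (42 and 1574 cells) the medians were 12152.5 and 13643.5 UMIs. Sirpa (1.40, 1.16 to 1.68), Pirb (1.34) and Lilrb4a (1.34) were higher in monocytes with a MYC UMI, and Cd47 was at 1.01 (0.892 to 1.15). In immature neutrophils (42 and 2016 cells) the cells with a MYC UMI were deeper, with medians of 14336.5 and 10449 UMIs. Sirpa (0.941, 0.692 to 1.25) and Pirb (0.983, 0.826 to 1.16) had intervals there that included 1, as did Lilrb4a at 1.20. A MYC UMI does not show that the cell made the transcript, since free RNA within the MYC library was not measured, and cells without one may still carry it at this depth.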

How the data were processed

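Bone marrow cells of 1 control and 1 MYC library (1 sample per group) were analysed from the UMI counts the authors deposited. Per the file headers Cell Ranger 6.0.0 made them. The submitters' processing notes name Cell Ranger 6.0, Seurat and the builds GRCm38 and mm10, and the labels' protocols a 3′ kit. How barcodes were called as cells is not given in the sources used here. Gene positions came from GENCODE vM21 (GRCm38), matched by identifier for 32158 of 32286 features.

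The 8 genes, all lists and the alternatives were chosen with earlier results of these data known. Cells with at least 500 UMIs, 200 genes and under 10% mitochondrial UMIs were kept. Doublets called with Scrublet (expected rate 0.12) were removed: 741 from the control (4.79% of 15461) and 251 from the MYC library (1.95% of 12896), so some doublets may remain. Both libraries were clustered together in scanpy 1.11.5 (2000 variable genes without any listed gene, 30 components, 15 neighbours, Leiden resolution 1, seed 0). Each cluster was named for the best-scoring of 19 fixed marker sets where at least 3 markers were detected and its 10 leading genes did not contradict it. A cluster led by MHC class II genes got no type name, by a rule added after seeing the data. Clusters that met neither rule stayed unnamed, among them the one led by Ifit1, and low depth alone did not leave a cluster unnamed.

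UMIs were summed per class and library and given per 1000000 UMIs (CPM), with exact Poisson intervals for levels and exact conditional binomial intervals for ratios, at 95%. PCR and sampling error beyond counting is not covered. A gene counted as different at 2-fold or more with at least 50 UMIs over both libraries. Named genes were the 8, their family genes, binding partners and maturation genes, up to 2 highest and 2 lowest genes of each other list per class, and the 3 most similar genes. Axl, Lag3 and Ptpn6, and Irf9 in erythroid cells, fell outside that rule and were named after their values were seen. On simulated counts for mature neutrophils (9468 genes) 100% of 200 genes changed 4-fold were recovered, and 99.5% for T or NK cells (6530 genes). Of the unchanged genes 0.0971% and 0.900% passed 2-fold. The simulation held counting error alone, so it cannot show how well smaller differences or differences between libraries are told apart. Alternatives covered clustering, cell filters, doublets, scaling and the UMI minimum; 2 more, on neutrophil clusters, and the values of 7 list genes in single erythroid clusters were chosen after seeing the data. Nothing was corrected for free RNA. One gene of the interferon list, and that list's counts and medians, are not reported here.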

Additional observations from a re-analysis of the deposited data

Results flagged for a closer look

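Cd274 had a log2 ratio of 1.03 (MYC library over control) in T or NK cells and of -1.25 in mature neutrophils, so the 2 classes lay on opposite sides of 2-fold under the same contrast. The difference between the classes was not tested, since each group has 1 library. The T or NK value rests on 34 and 22 UMIs, and the neutrophil value turned to 0.74 without the Il1b-led cluster, which held 94 of its 107 control UMIs.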

How the results depend on the processing

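No paired analysis was possible because each group has 1 library. The count of pairs at least 2-fold higher, 1 in the report, became 0 with cells under 5% mitochondrial UMIs and with the 20 most abundant genes taken out of the total, 2 at cell minimums of 1000 UMIs and 500 genes and with a minimum of 20 UMIs, 3 as a mean over cells, 4 with each library clustered on its own and 6 with no minimum beyond 1 UMI in each library. The count of pairs at least 2-fold lower, 3 in the report, became 6 as a mean over cells, 5 at Leiden resolution 0.5, 5 without the 20 most abundant genes, 5 with no minimum and 1 under median-of-ratios scaling. Of the 59 values, 42 kept their sign under all alternatives run and 17 turned in some. None of the 4 past 2-fold stayed there under all: Cd274 in mature neutrophils did in 9 of 10 (-0.72 at the cell minimums above), Cd24a in mature B cells in 8 of 9, Cd274 in T or NK cells in 7 of 10 and Cd24a in basophils or mast cells in 6 of 10. Without the Il1b-led cluster, an alternative chosen after seeing the data, Cd274 in mature neutrophils turned to 0.74. All 10 Cd24a values and the 6 myeloid Sirpa values kept their sign under the 6 to 10 alternatives that gave each class. Median-of-ratios scaling moved the values of a class up by 0.03 to 0.31, the size of its all-gene median. Depth limits Cd274, Pdcd1lg2 and Havcr2 most, with 118 to 610 UMIs per library.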
